A study of Mus musculus with 18 samples.

Results

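Transcripts of 7 transcription factor genes that steer helper T-cell lineages and effector differentiation were followed across 6 CD4+ T-cell populations. Tbx21, Gata3, Rora, Prdm1, Nfil3, Id2 and Ahr were taken by their symbols, and all 7 had a row in the deposited table of 15402 genes. Lymph node T cells came from female mice of strain C57/BL6 Foxp3Timer Foxp3-IRES-GFP, 5 to 10 weeks old by the study's sensitisation protocol, whose abdominal skin had received 3% oxazolone, a contact-sensitising hapten, 5 days before. Every population came from sensitised mice, and no unsensitised mice were among the samples. In these mice a Timer protein, driven by Foxp3 transcription, is translated in a blue form that matures to a red form. Tnaive cells (CD44lo, GFP- and Timer-) and Teff cells (CD44hi, GFP- and Timer-) were the conventional T cells. The 4 Timer+ populations were all GFP+. Pers1 cells, with intermediate blue and low red fluorescence, and Pers2 cells, high in both colours, are those defined by persistent Foxp3 transcription (the persistent populations). PAt cells, low in blue and high in red, and Arrested cells, without blue and with intermediate red, are defined by slowed or arrested transcription (the slowed populations). The sample labels call these 4 populations de novo, maturing, mature and decaying expressers. Each population had 3 libraries, each from a pool of 3 mice, which gave 18 libraries.

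T-bet, the product of Tbx21, directs the type 1 helper programme, and Gata3 directs the type 2 programme. Both are also known in regulatory T cells (Treg), where they accompany migration into inflamed tissue. Rora encodes a nuclear receptor of type 17 helper cells, of innate lymphoid cells and of Treg in skin. Prdm1 encodes Blimp-1, a zinc finger repressor of plasma cells and of effector T cells, including the Treg that make interleukin 10. Nfil3 encodes a basic leucine zipper repressor shared with the circadian clock. Id2 encodes a helix-loop-helix protein without a DNA-binding region, which holds E proteins away from their E-box sites. Ahr encodes the aryl hydrocarbon receptor, which enters the nucleus on binding a ligand and pairs with Arnt.

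The 250 bases upstream of the RefSeq start site (GRCm38.p6) are shown for Prdm1, Id2 and Tbx21, whose transcripts followed 3 different orders across the populations. They are read 5′ to 3′ on the coding strand, which is the minus strand for all 3. Capitals mark E-boxes (CANNTG, the sites of E proteins) and the core of the Ahr-Arnt site (GCGTG, or CACGC on the other strand). An E-box reads as an E-box on both strands, and the marked matches do not overlap.
Prdm1 (chr10:44458749-44458998): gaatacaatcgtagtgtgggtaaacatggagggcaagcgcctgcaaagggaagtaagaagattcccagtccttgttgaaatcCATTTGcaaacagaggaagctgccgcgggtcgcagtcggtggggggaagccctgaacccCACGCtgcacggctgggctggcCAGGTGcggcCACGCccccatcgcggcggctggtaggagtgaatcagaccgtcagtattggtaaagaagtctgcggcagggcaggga
Id2 (chr12:25096093-25096342): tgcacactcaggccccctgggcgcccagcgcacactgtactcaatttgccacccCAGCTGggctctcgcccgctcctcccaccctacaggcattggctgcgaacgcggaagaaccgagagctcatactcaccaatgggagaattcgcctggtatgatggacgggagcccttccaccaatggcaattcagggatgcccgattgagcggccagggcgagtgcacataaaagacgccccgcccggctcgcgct
Tbx21 (chr11:97115332-97115581): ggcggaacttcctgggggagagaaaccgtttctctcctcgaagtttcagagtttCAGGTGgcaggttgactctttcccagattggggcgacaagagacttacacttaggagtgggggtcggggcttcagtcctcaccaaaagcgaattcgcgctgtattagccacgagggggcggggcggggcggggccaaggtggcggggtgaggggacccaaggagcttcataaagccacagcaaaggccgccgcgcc

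Windows were found for 6 of the 7 genes, and Ahr was not matched. An E-box was present in 4 of them, with 2 matches for Prdm1 and 1 each for Tbx21, Nfil3 and Id2, and 66.2% of the 32851 windows of the same length held one. GCGTG was matched 2 times for Prdm1 and 1 time for Rora, against 28.2% of all windows with a match. Id2 had 3 CCAAT boxes, a sequence found in 33.9% of windows. GC content ran from 59.2% for Prdm1 to 81.6% for Nfil3, above the median of 52.4% over all windows. These are matches of letters and not measured binding sites.

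On GRCm38 (mm10), GENCODE places Tbx21 on chromosome 11 (97098071 to 97115331), Gata3 on chromosome 2 (9857078 to 9890034) and Rora on chromosome 9 (68653786 to 69388246). Prdm1 lies on chromosome 10 (44437177 to 44528501) and Nfil3 on chromosome 13 (52967209 to 52981073). Id2 (25093799 to 25097140) and Ahr (35497974 to 35535038) share chromosome 12. The windows shown for Prdm1 and Id2 lie inside these spans, since GENCODE also holds longer transcripts of both genes. Exons of Gata3 share 155 bp with the antisense gene Gm13256 and 77 bp with 9230102O04Rik of the same strand. Exons of Rora share 82 bp with Gm15511 and those of Ahr 127 bp with Gm48236, both on the opposite strand. Whether reads were counted by strand is not given in the sources used here, so a few reads of these 3 genes could belong to their neighbours.

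Values are in log2 of normalised read counts, as the authors deposited them, with the features of DESeq2's regularised log. Fold changes were taken from these values and are not ratios of raw counts. Libraries of the same population correlated at 0.996 to 0.999 over the 13190 genes tested. A gene was called at a Benjamini-Hochberg adjusted p under 0.05 from limma and an absolute log2 fold change over 1. Foxp3 averaged 14.42 to 14.82 in the Timer+ populations, 11.34 in Tnaive and 10.54 in Teff cells. Between the persistent and slowed populations its log2 fold change was 0.24 (SE 0.05, adjusted p = 0.000139), under the fold threshold and with overlapping libraries. Cd44, on which Tnaive and Teff cells were separated, averaged 9.61 ± 0.13 (SD, n = 3) and 13.05 ± 0.01. T-cell markers were high throughout, with population means of 13.66 to 13.87 for Cd3e and 14.49 to 15.67 for Cd4. Markers of myeloid, B, NK, plasma, γδ and CD8 T cells were summed highest in Teff libraries, while the sum over 5 markers of innate lymphoid cells was highest in Pers2 (12.4 to 12.7 in log2, against 11.4 to 11.6 in Teff). Among them, Il1rl1 and Klrg1 averaged 11.79 and 10.16 in Pers2 against 8.12 and 4.84 in Teff, whereas Il17rb and Kit averaged 11.05 and 7.73 in Teff against 9.25 and 6.33 in Pers2. The log2 of the summed level of 7 myeloid and dendritic markers (6 over the filter on low values) was 11.57 to 12.02 in Teff libraries and 7.13 to 8.61 in the other 15. Of these, the plasmacytoid dendritic marker Siglech averaged 10.62 in Teff and from 3.58 to 4.30 elsewhere, and Cd14 averaged 0.46 to 0.55. The sum over 7 B-cell markers was 12.7 to 13.2 in Teff, 11.8 to 12.4 in PAt and Arrested, 11.2 to 11.4 in the persistent and 9.83 to 10.4 in Tnaive libraries. In bulk RNA, fewer cells with a transcript and less of it per cell cannot be told apart.

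The first comparison asked how the factors differ between Treg defined by persistent and by slowed or arrested Foxp3 transcription. All 7 were higher in the persistent populations, with every persistent library above every PAt and Arrested library, which held for 24.0% of all tested genes. Prdm1 rose most (7.82-fold), followed by Ahr (3.53-fold), Nfil3 (3.41-fold) and Tbx21 (3.00-fold), and these 4 of 7 passed both thresholds. Rora (1.93-fold), Id2 (1.49-fold) and Gata3 (1.45-fold) had adjusted p-values of 1.25e-10, 1.05e-07 and 1.51e-07 and a log2 fold change under 1. Over all tested genes 4.74% were called higher and 2.77% lower, and none of the 7 was called lower. The median log2 fold change was 1.59 over the 7 and -0.01 over all tested genes.

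**Figure D1:**
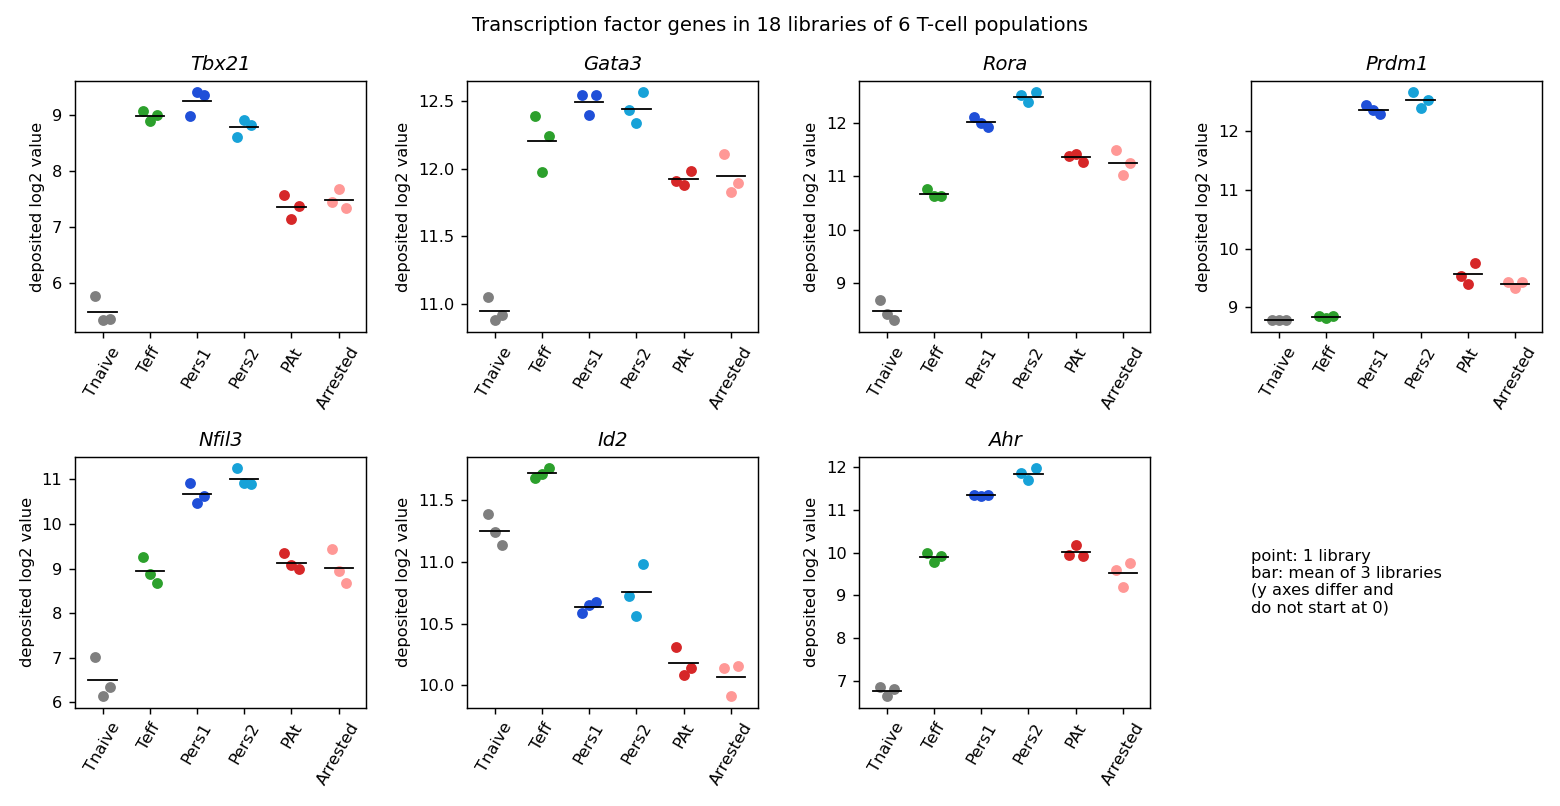
Deposited log2 value (y axis, a separate range in each panel, not starting at 0) of 7 genes in 6 populations (x axis). Each point is 1 of 3 libraries and the bar their mean, and for all 7 genes the 6 Pers1 and Pers2 points lie above the 6 PAt and Arrested points.

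Prdm1 had log2 values of 12.45, 12.36 and 12.29 in Pers1 and 12.66, 12.40 and 12.54 in Pers2 libraries. PAt libraries had 9.54, 9.40 and 9.76, and Arrested libraries 9.44, 9.34 and 9.43. Teff libraries had 8.86, 8.82 and 8.85 and Tnaive libraries 8.79, 8.78 and 8.79. The persistent libraries thus stood alone, with the slowed populations slightly above both conventional populations. Against the slowed populations the log2 fold change was 2.97 (standard error, SE, 0.06, adjusted p = 1.3e-19). It was 3.61 against Teff (SE 0.07, adjusted p = 7.82e-20) and 3.66 against Tnaive (SE 0.07). The slowed populations exceeded Teff by 0.64 and Tnaive by 0.69, short of the fold threshold. Teff and Tnaive differed by 0.06 (95% interval -0.11 to 0.22, adjusted p = 0.576), and that difference turned to -0.03 when libraries were centred on their medians and to -0.11 after quantile normalisation. The SD of Prdm1 in Tnaive libraries was 0.0081, where the median was 0.096 over 1377 genes within 0.5 of its level there, and 0.218% of these genes had a smaller SD. Values this close together were measured in Teff too (SD 0.0244, against a median of 0.121). The regularised log draws values of genes with few reads towards a common level, and its part in the low Prdm1 values was not tested.

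Ahr had log2 values of 11.35, 11.32 and 11.34 in Pers1, and 11.85, 11.69 and 11.97 in Pers2 libraries. PAt libraries had 9.95, 10.17 and 9.92, Arrested 9.60, 9.20 and 9.76, and Teff 9.99, 9.79 and 9.92. Tnaive libraries were far lower, at 6.85, 6.65 and 6.82. Ahr rose in persistent cells over the slowed populations by 1.82 (SE 0.08, adjusted p = 2.17e-14) and over Teff by 1.69 (SE 0.10). Against Tnaive the persistent populations had a log2 fold change of 4.81, 28.1-fold, the largest of the 7 genes. The slowed populations together did not pass the test against Teff (log2 fold change -0.13, 95% interval -0.33 to 0.07, adjusted p = 0.27).

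Nfil3 reached 10.92, 10.48 and 10.63 in Pers1 and 11.26, 10.91 and 10.89 in Pers2 libraries. It was 9.35, 9.07 and 8.99 in PAt, 9.43, 8.95 and 8.68 in Arrested and 9.26, 8.89 and 8.69 in Teff libraries, whose ranges overlapped. In Tnaive libraries it was 7.03, 6.14 and 6.35. Persistent cells had a log2 fold change of 1.77 over the slowed populations (SE 0.14, adjusted p = 6.47e-10), 1.90 against Teff (SE 0.18) and 4.34 against Tnaive. Nfil3 varied more between libraries than most genes of its level, with 99.1% of 2207 genes of like level in Pers1 and 99.1% of 1602 in Arrested cells having a smaller SD. The library numbered 1 was the highest of the 3 in 6 of 6 populations. With the replicate number as a block the standard error of the first comparison fell from 0.14 to 0.07 and the fold change was the same.

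Tbx21 differed from these genes in that Teff and persistent libraries overlapped. Its log2 values were 8.98, 9.40 and 9.35 in Pers1, 8.60, 8.91 and 8.82 in Pers2, and 9.06, 8.90 and 8.99 in Teff libraries. PAt libraries had 7.57, 7.14 and 7.37, Arrested 7.45, 7.68 and 7.35, and Tnaive 5.78, 5.34 and 5.37. The persistent populations exceeded the slowed populations by 1.59 (SE 0.10, adjusted p = 1.39e-11). Against Teff the difference was 0.03 (95% interval -0.23 to 0.29, adjusted p = 0.876), and its sign changed under both other scalings. The slowed populations were lower than Teff by 1.56 on the log2 scale (log2 fold change -1.56, adjusted p = 9.97e-10). Teff cells were sorted as CD4+, and NK cells are known for T-bet. Teff libraries held more RNA of 4 NK-cell markers, with a log2 summed level of 8.91 to 8.93 against 5.95 to 7.09 in the other 15, and their part in the Tbx21 value was not tested.

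Rora followed the order Pers2, Pers1, PAt, Arrested, Teff and Tnaive, in which only PAt and Arrested libraries overlapped. Pers2 libraries had log2 values of 12.51, 12.39 and 12.57, and Pers1 12.11, 11.99 and 11.92. PAt had 11.37, 11.42 and 11.27 and Arrested 11.48, 11.03 and 11.25, all above the 10.76, 10.64 and 10.63 of Teff. Tnaive libraries had 8.69, 8.41 and 8.30. All 12 Timer+ libraries were thus above all Teff libraries. Persistent cells had a log2 fold change of 0.95 over the slowed populations (SE 0.07), and 1.00 without Arrested replicate 1, which put it just past the threshold. It was 1.57 against Teff (SE 0.09, adjusted p = 1.46e-12) and 3.78 against Tnaive. The slowed populations exceeded Teff by 0.63 (adjusted p = 2.68e-06), inside the fold threshold.

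Gata3 was high and moved least among the 6 genes that rose from Tnaive to Pers cells. Its log2 values were 12.54, 12.40 and 12.54 in Pers1, 12.43, 12.34 and 12.56 in Pers2, and 12.39, 11.98 and 12.24 in Teff libraries. PAt had 11.91, 11.88 and 11.98 and Arrested 12.11, 11.83 and 11.90. Tnaive libraries, at 11.05, 10.88 and 10.92, stood below all others, and neighbouring populations above them overlapped. Log2 fold changes were 0.53 for the persistent populations against the slowed populations (SE 0.06), 0.27 against Teff (SE 0.08, adjusted p = 0.00516, but 0.0927 without Teff replicate 2) and 1.52 against Tnaive (SE 0.08, adjusted p = 1.37e-13). The slowed populations exceeded Tnaive by 0.98, which became 1.03 without Tnaive replicate 1 and 1.01 without Arrested replicate 2, past the threshold in both.

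Id2 was higher in the conventional T cells than in all Timer+ populations. Teff libraries were highest, at 11.68, 11.71 and 11.76, and Tnaive libraries next, at 11.38, 11.24 and 11.13. All 12 Timer+ libraries were lower, with Pers1 at 10.59, 10.65 and 10.67 and Pers2 at 10.72, 10.56 and 10.98. PAt cells had 10.31, 10.08 and 10.14, and Arrested cells 10.14, 9.91 and 10.16, below every persistent library. The slowed populations had a log2 fold change of -1.59 against Teff (SE 0.08, adjusted p = 4.28e-13) and of -1.13 against Tnaive (SE 0.08, adjusted p = 1.1e-10). For the persistent populations it was -1.02 against Teff (SE 0.08, adjusted p = 5.16e-10), and -0.97 without Pers2 replicate 2, inside the threshold. Against Tnaive it was -0.56. Dendritic cells other than the plasmacytoid kind are known to express Id2. The sum of myeloid and dendritic markers was highest in Teff libraries (above). It was 7.13 to 7.37 in Tnaive, 8.02 to 8.61 in PAt and 7.73 to 8.55 in Arrested libraries. In Teff libraries the plasmacytoid marker Siglech (10.62) averaged highest among these markers, before Itgax (9.73). The part of such cells in the Id2 values was not tested.

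**Figure D2:**
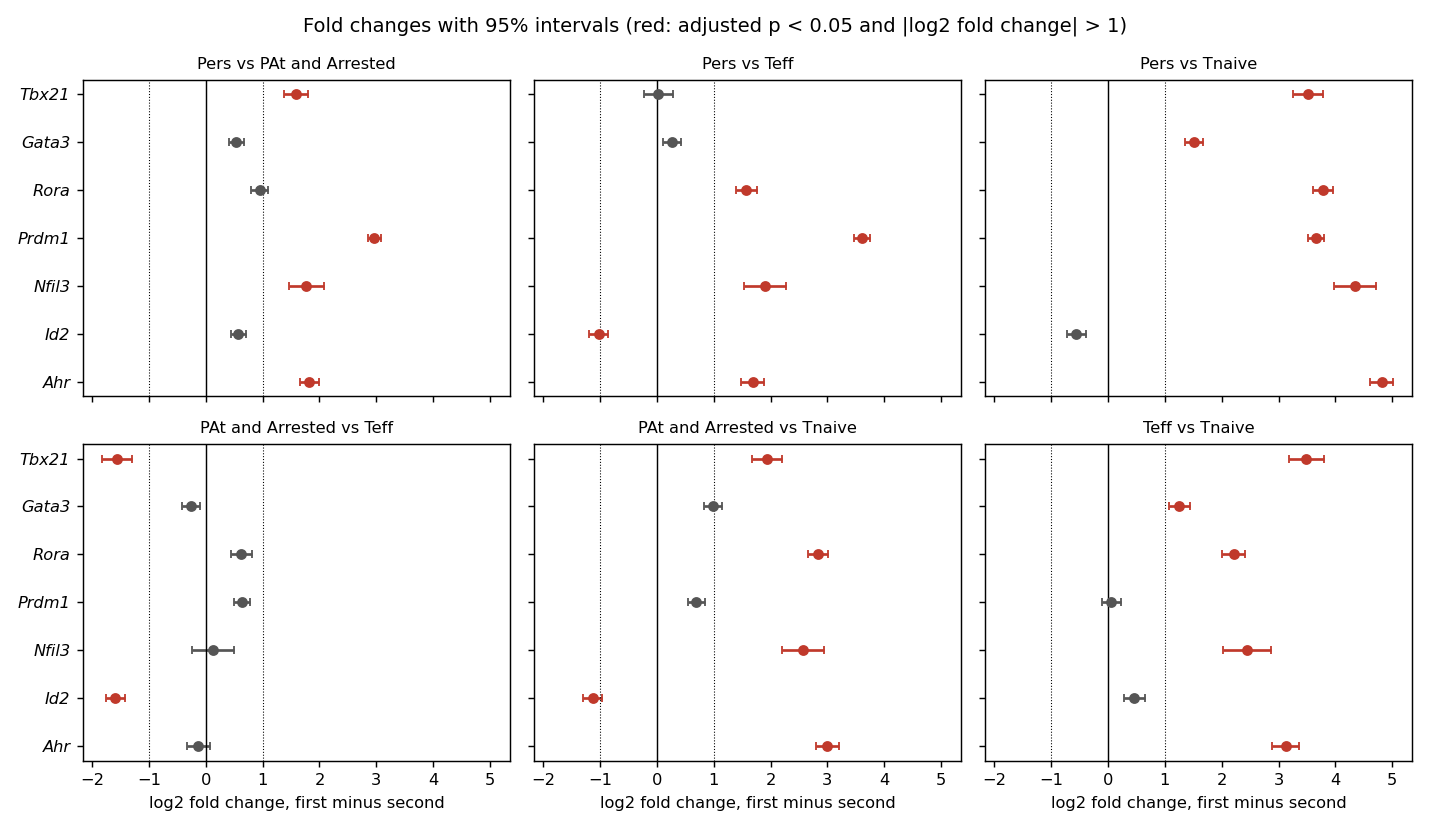
Log2 fold change (x axis, first population minus second) of 7 genes (rows) in 6 comparisons (panels), with 95% intervals from limma and dotted lines at -1 and 1. Red marks called genes, among them Id2 to the left of 0 in all 3 panels in which it is red, and Prdm1 near 0 between Teff and Tnaive.

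Counted by comparison, the persistent populations against Teff gave 4 of the 7 genes called higher (Rora, Prdm1, Nfil3 and Ahr) and 1 lower (Id2), where 4.28% and 4.03% of all tested genes were called. Against Tnaive, 6 of 7 were called higher, against 10.6% of all genes, and 4.78% of all genes were called lower. The slowed populations against Teff gave 2 called lower (Tbx21 and Id2) and 0 higher, with 4.04% and 2.84% of all genes. Against Tnaive they gave 4 higher (Tbx21, Rora, Nfil3 and Ahr) and 1 lower (Id2), with 6.63% and 1.27%. In Teff against Tnaive, 5 of 7 were called higher (Tbx21, Gata3, Rora, Nfil3 and Ahr), with 8.88% of all genes higher and 2.28% lower. Of all called genes, those called higher made up 68.9% in the persistent populations against Tnaive and 79.6% in Teff against Tnaive. After quantile normalisation these shares were 55.8% and 63.1%, and the median log2 fold change over all genes in the first of them moved from 0.01 to -0.13 with median centring and -0.10 with quantile normalisation. These comparisons share libraries, so their counts are not independent of each other.

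Within the pairs of Treg populations, 0 of the 7 genes were called, as were 0.144% (higher) and 0.0455% (lower) of all genes in Pers2 against Pers1, and 0.0455% and 0.0758% in Arrested against PAt. By the adjusted p alone, Ahr and Rora were higher in Pers2 than in Pers1, where 6.02% of all genes were. The log2 fold change was 0.50 for Ahr (SE 0.11, adjusted p = 0.00577) and 0.48 for Rora (SE 0.10, adjusted p = 0.00305), with all 3 Pers2 libraries above all 3 Pers1 libraries for both. Tbx21 went the other way (log2 fold change -0.47, adjusted p = 0.0438), as did 4.56% of all genes, with each Pers2 library below each Pers1 library. Its adjusted p ran from 0.0153 to 0.172 over the alternatives, and it exceeded 0.05 in 5 of 6 fits that left out 1 library, all but the one without Pers1 replicate 1. Nfil3 had a log2 fold change of 0.34 (adjusted p = 0.333), which had an adjusted p of 0.0331 with the replicate block and of 0.254 to 0.641 with 1 library left out. In Arrested against PAt, Ahr was lower (log2 fold change -0.49, SE 0.11, adjusted p = 0.0118), without overlap of libraries. By that criterion 2.97% of all genes were lower and 2.07% higher. This adjusted p ran from 0.00237 to 0.0919 over the alternatives and exceeded 0.05 without PAt replicate 2 (0.0803) or Arrested replicate 2 (0.0801). The 95% intervals of the other 6 genes in this pair included 0, the widest being that of Nfil3 (-0.54 to 0.31).

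Whether a factor changed as much between persistent and slowed Treg (the Treg shift) as between Teff and Tnaive cells (the conventional shift) was tested as 1 contrast, which shares no library between its sides. The shifts differed past both thresholds for 4 of 7 genes. Prdm1 had a Treg shift of 2.97 and a conventional shift of 0.06, a difference of 2.91 (SE 0.10, adjusted p = 1.61e-15). The part of the regularised log in its low Teff and Tnaive values was not tested (above). Tbx21 shifted by 1.59 and 3.49, a difference of -1.91 (SE 0.18, adjusted p = 1.42e-08). Ahr (-1.31, adjusted p = 8.52e-08) and Rora (-1.26, adjusted p = 2.28e-08) likewise had the smaller shift among Treg. Gata3 (-0.72) and Nfil3 (-0.67) differed by less than the fold threshold. For Id2 the shifts were 0.57 and 0.46, and the 95% interval of their difference ran from -0.13 to 0.34. Of all tested genes 1.52% had a larger and 6.90% a smaller Treg shift. With quantile normalisation, 35.4% of these calls were on the larger side instead of 18.02%. The shifts start from unlike levels. For Ahr and Rora the slowed populations already exceeded Tnaive by 2.99 and 2.84, and the persistent populations exceeded Teff by 1.69 and 1.57. For Tbx21 the slowed populations exceeded Tnaive by 1.93. Cd44 itself had a Treg shift of 1.00 and a conventional shift of 3.44. Teff libraries also held the most RNA of several other cell types (above), whose part was not tested.

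**Figure D3:**
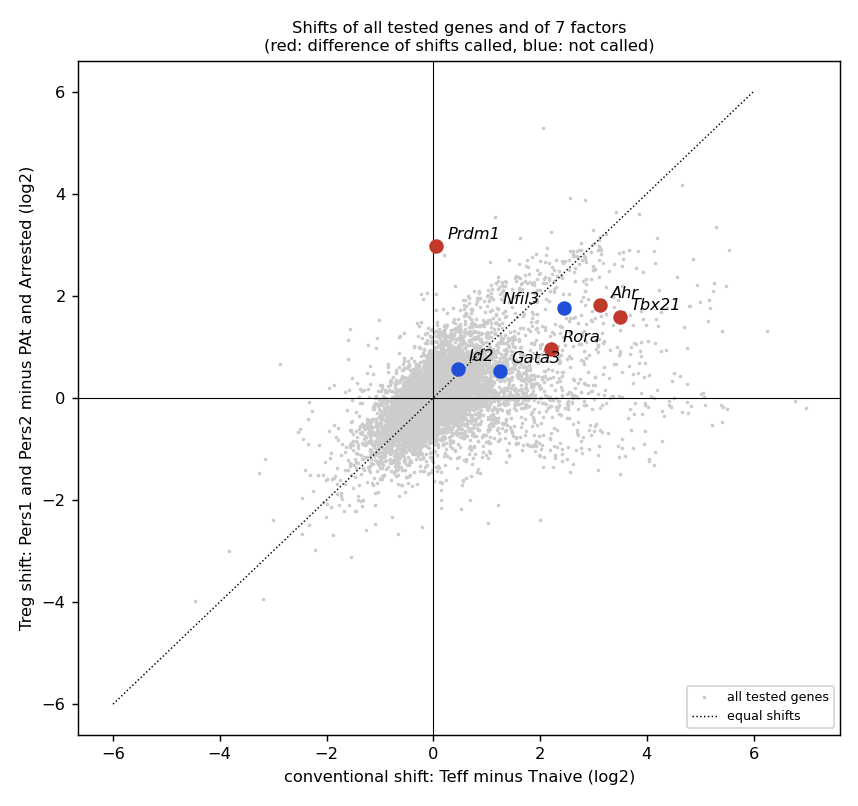
Treg shift (y axis, log2) against conventional shift (x axis, log2) for 13190 tested genes (grey) and 7 factors (coloured), with a dotted line of equal shifts. Prdm1 lies at 0.06 and 2.97, above the line, while Tbx21, Ahr, Rora, Gata3 and Nfil3 lie below it. Id2, at 0.46 and 0.57, lies just above the line.

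To set genes beside each other, each mean was reduced by the log2 of the gene's merged exon length in kb. On this scale of log2 level per kb, Gata3 was highest of the 7 in all 4 Timer+ populations, at 10.50 ± 0.09 (SD, n = 3) in Pers1 and 9.93 ± 0.05 in PAt. In Tnaive and Teff cells Id2 was highest, at 9.97 ± 0.13 and 10.43 ± 0.04. Prdm1 ranked second in the persistent populations (9.88 ± 0.08 in Pers1 and 10.05 ± 0.13 in Pers2) and last in Teff cells (6.36 ± 0.02). In Pers2, the levels per kb of Prdm1 and Nfil3 (10.00 ± 0.20) differed by less than their spread. Tbx21 was lowest of the 7 in all 4 Timer+ populations, from 6.05 in PAt to 7.93 in Pers1. All transcripts in GENCODE entered the length, so a gene such as Rora, with 13071 bp of exon, would rank higher if short transcripts prevail. The regularised log also draws values of genes with few reads together, and its part in these ranks was not tested.

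**Figure D4:**
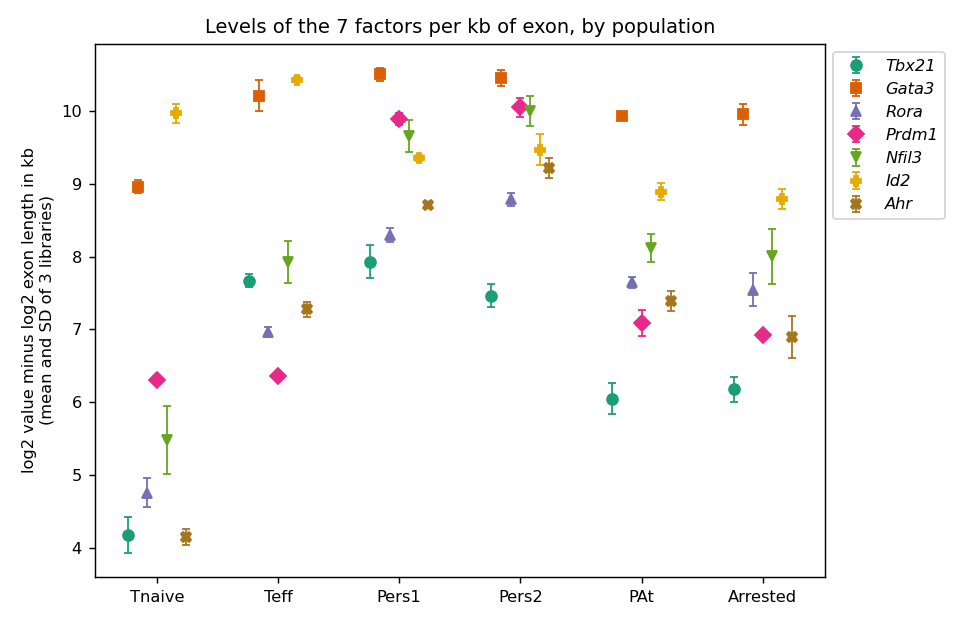
Log2 value minus log2 exon length in kb (y axis, mean and SD of 3 libraries) of 7 genes in 6 populations (x axis, genes set side by side within a population). Gata3 is highest in the 4 Timer+ populations and Id2 in Tnaive and Teff, and Prdm1 moves from last in Teff to second in Pers1 and Pers2.

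Genes linked to each factor by textbook knowledge (targets, partners and antagonists) were examined in the comparison of persistent with slowed populations. Of 73 distinct genes 64 were tested, and 11 were called higher and 6 lower, where 4.74% and 2.77% of all tested genes were. The lists were chosen with earlier results of these data known. An excess over all genes is therefore no independent sign of a link. In the Tbx21 list, 3 of 12 tested genes rose, 0 fell and 9 were not called, with a median log2 fold change of 0.25. They were the chemokine receptor gene Cxcr3 (2.25), the interleukin 18 receptor subunit gene Il18rap (1.55) and Runx3 (1.18), a partner of T-bet. Hlx lay under the filter. In the Gata3 list, 4 of 10 rose and 0 fell (median 0.72), namely the skin-homing receptor gene Ccr4 (2.71), Maf (2.19), the interleukin 33 receptor gene Il1rl1 (1.46) and Ccr8 (1.22). Il5 and Il13, the type 2 cytokine genes, lay under the filter.

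In the Prdm1 list, 2 of 11 rose and 4 fell (median -0.85). Il10, the cytokine gene, rose by 2.26 and Irf4, which acts upstream of Prdm1, by 1.43. Bach2, an antagonist of Prdm1 (-2.10), Myc (-1.68), Tcf7 (-1.48) and Klf2 (-1.11) fell, the last 3 genes of proliferation, of memory cells and of quiescence and recirculation. Irf4 and Klf2 were named after their values were seen. In the Nfil3 list, 1 of 9 rose and 1 fell (median -0.40), Havcr2 (3.92), which encodes the coinhibitory receptor Tim-3, and Dbp (-1.40), a clock gene that binds the same sites as Nfil3. In the Rora list, 0 of 10 rose and 1 fell (median 0.10), the clock repressor gene Nr1d2 (-1.06), while Il17a and Il17f lay under the filter. Of the Id2 list 0 of 6 tested genes were called (median -0.31), and Id4 had no row. In the Ahr list only Nqo1 (1.09), an oxidoreductase gene known as an Ahr target, with a mean log2 level under 5, was called among 7 (median 0.01), with the list's Cyp1a1 and Il22 under the filter and Cyp1b1 without a row. Tiparp, another known target, had a value of -0.11 (adjusted p = 0.212), and was chosen after its value was seen. The median over all tested genes was -0.01.

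**Figure D5:**
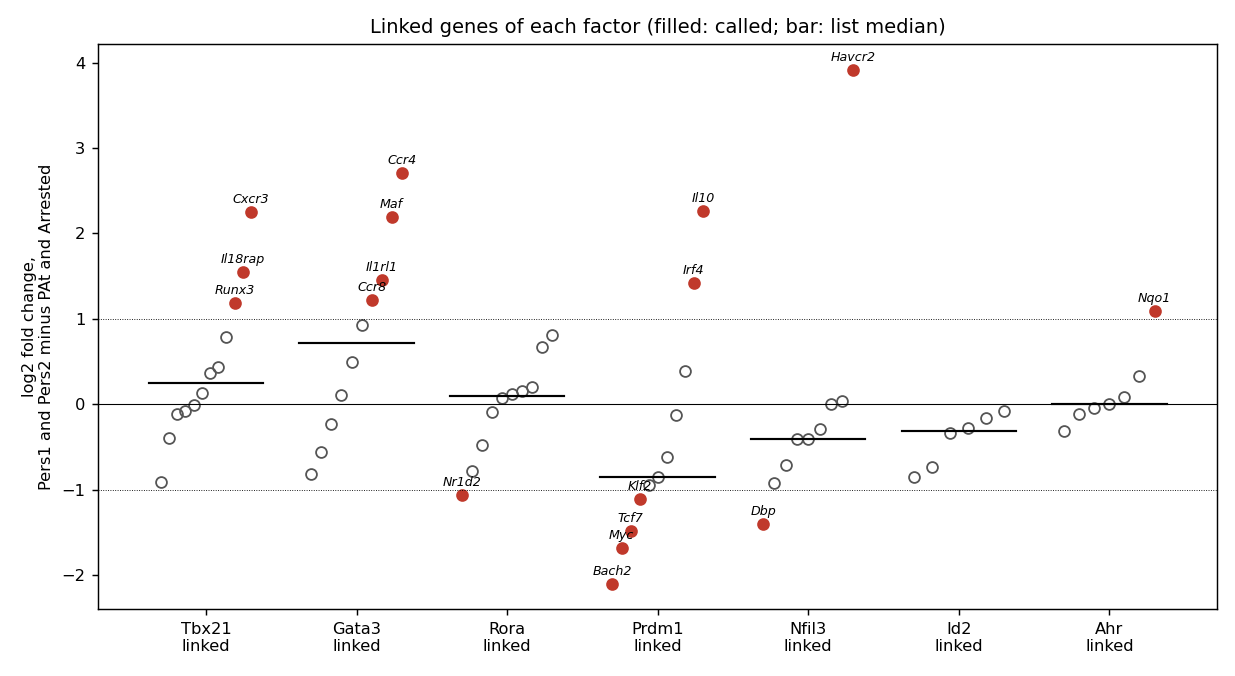
Log2 fold change between persistent and slowed populations (y axis) of tested genes linked to each factor (columns). Filled points are called, open points not, the bar is the list's median, and dotted lines mark -1 and 1. Called genes are all above 0 in the Tbx21 and Gata3 lists and lie on both sides in the Prdm1 list.

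Against Teff cells, where 4.28% of all tested genes were called higher and 4.03% lower, the counts in the same lists were as follows. The limit given above for the choice of these lists holds here too. In the Gata3 list 5 of 10 genes were higher in the persistent populations, led by Il1rl1 (3.37) and Ccr8 (3.07), and the helper cytokine gene Il4 was lower (-2.79). The Tbx21 list had 0 higher and 2 lower (Zeb2, -2.16, and Eomes, -1.91) among 12. Of the Prdm1 list, Il10 was higher (2.60) and 5 of 11 were lower, among them Bcl6 (-2.70), the follicular factor that opposes Prdm1, Tcf7 (-2.63) and Bach2 (-1.12). In the Id2 list 3 of 6 were lower, namely the E protein gene Tcf4 (-2.79), Cxcr5 (-2.73) and Id3 (-1.19). Plasmacytoid dendritic cells are known for Tcf4 and Zeb2, and B cells for Cxcr5 and Bcl6. Siglech was highest in Teff libraries (above), as was the sum over 7 B-cell markers (12.7 to 13.2 against 11.2 to 11.4 in the persistent libraries), and the part of either in these differences was not tested. Il4, Zeb2, Eomes, Bcl6, Tcf4, Cxcr5 and Id3 were chosen after their values were seen.

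The likeness of other genes to each factor was described by Pearson's r across the 18 libraries, which are 6 clusters of 3 and not independent points. Ahr had 673 genes with r over 0.9 among 13189, with Sh3bgrl (0.994), Cyfip1 (0.991) and Galm (0.990) first. The closest to Nfil3 were Tk1 (0.989), the thymidine kinase gene of dividing cells, Slc43a3 (0.987) and Acot7 (0.987). Rora was closest to Dclk2 (0.991), Ctla4 (0.989), the coinhibitory receptor gene, and Nrbp2 (0.989). For Tbx21 they were Irf4 (0.988), Litaf (0.987) and Plekho2 (0.984), for Gata3 Stx11 (0.987), Reep3 (0.983) and Ryk (0.982), and for Prdm1 Csrp1 (0.987), Hnrnpab (0.987) and Nmur1 (0.985). Id2 stood apart with 23 genes over 0.9, led by Sepp1 (0.970), Mfsd6 (0.954) and Bpgm (0.943), where the other 6 factors had 425 to 673. Between the factors, r was 0.978 for Nfil3 with Ahr and 0.973 for Rora with Ahr, and between -0.448 and 0.066 for Id2 with each of the others. On deviations from the population means it was 0.137 for Nfil3 with Ahr, 0.603 for Rora with Ahr and 0.691 for Rora with Nfil3.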

How the data were processed

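RNA-seq of 18 libraries from 6 sorted CD4+ T-cell populations was used, with 3 libraries each. Stranded mRNA libraries were sequenced with paired ends, and the authors aligned the reads to mm10 with TopHat2 (2.0.9, after CASAVA 1.8.2 and FastQC 0.11.2, per the submitters' processing notes) and used DESeq2. The counter is not given in the sources used here. For 15402 genes the authors deposited normalised counts in log2, with the features of the regularised log, and these were kept as they were, with no pseudocount. Read depth is unknown, so precision rests on the spread between 3 libraries.

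Genes averaging 3 or more in log2 (13190, with 2212 left out) entered 1 linear model of 6 populations, fitted by limma 3.58.1 (R 4.3.3, 12 residual degrees of freedom) with a trend of variance on mean expression and Benjamini-Hochberg adjustment over all of them. On simulated data, 200 of 200 genes changed by 1.5 in log2 were recovered between persistent and slowed populations (PAt with Arrested), with 0 false calls. The simulated noise was normal and independent between libraries, and no change near the threshold of 1 was simulated. The result therefore says nothing of calls near that threshold or of effects shared by a pool of mice. Alternatives were other filters, no variance trend, 2 scalings, fewer populations, a replicate block and leaving out each library. The 7 genes and the linked and marker lists were chosen with earlier results of these data known. A gene that is not reported here was taken out of the Tbx21 list after the tests, and counts and the median are of the remaining genes. Named linked genes were the highest and lowest called gene of a list and up to 2 more by absolute fold change, and for each factor the 3 genes of highest r. Linked genes named outside this rule are marked as chosen after their values were seen. Exon lengths came from GENCODE vM21 and upstream sequences from RefSeq.

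The 6 populations of 1 replicate number were taken to come from 1 pool of mice, as the deposited description has them sorted from each mouse, though no source states outright that the number marks the pool. Deviations of 45 same-numbered pairs of libraries correlated at a median of 0.166 (-0.206 to 0.436), and those of 90 other pairs at -0.064. Correlations were above 0 in 42 of the 45 and in 17 of the 90. Deviations from a mean of 3 libraries sum to 0, so positive values of the first kind tend to bring negative values of the other.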

Additional observations from a re-analysis of the deposited data

Results flagged for a closer look

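For 4 of the 7 factors the change between persistent and slowed populations differed past both thresholds from the change between Teff and Tnaive cells. The test was limma's on that difference, in 1 model over 18 libraries. Of all tested genes 1.52% had a larger and 6.90% a smaller change among Treg. The difference was 2.91 in log2 for Prdm1, which rose 7.82-fold among Treg and whose ratio of Teff to Tnaive was 1.04 (not called). It was -1.91 for Tbx21, -1.31 for Ahr and -1.26 for Rora, which all rose more from Tnaive to Teff. For Tbx21, Ahr and Rora the slowed populations were already above Tnaive. The part of the regularised log in the low Teff and Tnaive values of Prdm1 was not tested. These 4 differences stayed past both thresholds when any 1 of the 18 libraries was left out. Groups of 3 libraries are too small for a test of single outlying libraries, and no column of the table was left unused.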

How the results depend on the processing

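The 63 fold changes of the 7 factors kept their direction and their call by both thresholds together in 430 of 434 values from other settings and in 576 of 588 values from fits that left out 1 library. Ranges of the adjusted p alone were gathered only for the pairs of Treg populations and for Gata3 in the persistent populations against Teff. Among these, Tbx21 in Pers2 against Pers1 exceeded 0.05 in 5 of 6 fits that left out 1 library (up to 0.172). Ahr in Arrested against PAt did so in 2 of 6, and Gata3 in the persistent populations against Teff in 1 of 9 (0.0927). Scaling reversed 2 of the 63 fold changes, both near 0. Tbx21 in the persistent populations against Teff went from 0.03 to -0.0337 with median centring and -0.006 with quantile normalisation, and to between -0.0175 and 0.0929 with 1 library left out. Prdm1 in Teff against Tnaive went from 0.06 to -0.0276 and -0.11. With 1 library left out, Gata3 spanned 0 in Pers2 against Pers1 (-0.11 to 0.0017) and in Arrested against PAt (-0.0636 to 0.0777), as did Rora (-0.22 to 0.0129) and Nfil3 (-0.32 to 0.0555) in the latter. The count of called genes in Arrested against PAt, 16, ran from 12 to 26 (26 without Arrested replicate 3). With a filter at a mean of 5, 0 genes of the Ahr list were called instead of 1, since Nqo1 was left out. Apart from the adjusted p of Nfil3 in Pers2 against Pers1 (0.0331 with it), the replicate block changed no call of a factor and left 4 factors and 992 genes called between persistent and slowed populations, against 990 without it. The depth behind single values is unknown.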
